A study of Mus musculus with 18 samples.

Results

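The 26S proteasome is the protease that degrades ubiquitin-tagged proteins, and its genes were described here in ribosome-protected fragments (RPF) and in mRNA. Of the 24035 genes listed, 40 have a symbol of the form Psma, Psmb, Psmc or Psmd followed by a digit. They comprised 19 genes of the core particle (8 Psma and 11 Psmb), 20 of the regulatory particle and its assembly (6 Psmc and 14 Psmd), and Psmc3ip. Psmc3ip matches the pattern of symbols but encodes a cofactor of meiotic recombination, not a subunit, so its values are given apart. The counts of subunits below are over the other 39 genes. They include Psmd5, Psmd9 and Psmd10, which encode assembly chaperones and are counted with the regulatory genes.

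The cells were NIH3T3, an established line of mouse fibroblasts, and each of 3 groups had 3 RPF and 3 mRNA libraries. WT cells received vehicle. Cells labelled C1483Y had been edited by CRISPR at Mtor, which encodes the mTOR kinase, so that the kinase carries the change C1483Y, and they also received vehicle. The third group was WT cells given Torin1, an inhibitor that competes with ATP at the mTOR kinase, at 200 nM for 3 h. The labels say neither whether the edited cells were 1 clone nor whether replicates were separate cultures, so the spread that p-values rest on is that of the libraries at hand and could be technical alone. A change of 1 base cannot be seen in counts per gene, so the edit was not checked here.

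The core particle is a barrel of stacked rings in which alpha subunits (Psma) form the outer rings and the gate, and beta subunits (Psmb) form the inner rings that hold the proteolytic sites. The regulatory particle caps the barrel: a ring of ATPases (Psmc) unfolds the substrate, and non-ATPase subunits (Psmd) bind and remove ubiquitin. Proteasome genes tend to be expressed together, and the transcription factor encoded by Nfe2l1 is known to raise them when the protease is impaired. The mTOR kinase controls translation most strongly for mRNAs that begin with a terminal oligopyrimidine (TOP) tract, a C followed by pyrimidines, as in mRNAs of ribosomal proteins.

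The first bases of the transcripts are shown for the subunits on which the Torin1 comparison turns, beside those of mRNAs known to carry a TOP tract. The RefSeq promoter table of GRCm38.p6 holds 33 of the 40 genes. Each stretch has 10 bases before the annotated start and 20 from it, 5′ to 3′ on the gene's strand, and capitals mark a C followed by pyrimidines, at least 5 bases in all, that begins within 5 bases of the start.
Psmb3, chr11:97703424-97703453, plus strand: tgagaaagccagagccggtttgcaggcaac
Psma6, chr12:55398815-55398844, plus strand: ccggtgctccggaagcagtagccataactt
Psmb4, chr3:94886939-94886968, minus strand: ggaccaCTTCCgtttccggtgacgctagcg
Psmd4, chr3:95042595-95042624, minus strand: tgagttctttgattggtgatgagcaccagg
Psmd6, chr14:14120926-14120955, minus strand: acgactCCTCCTgcttccgctggtggccca
Psmc5, chr11:106256175-106256204, plus strand: tgccgagagagggaagatggcgcttgatgg
Rps6, chr4:86857348-86857377, minus strand: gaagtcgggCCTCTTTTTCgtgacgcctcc
Rps18, chr17:33955646-33955675, minus strand: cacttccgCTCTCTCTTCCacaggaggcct
Eef1a1, chr9:78481705-78481734, minus strand: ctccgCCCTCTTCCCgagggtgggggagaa
The 3 reference genes shown carry runs of 10 or 11 bases near the start, whereas Eef2, another mRNA known for a TOP tract, has no run at its annotated start. Psmb4 and Psmd6 carry runs of 5 and 6. Psma6 is shown at 1 of its annotated starts. No run was found in the windows of Psmb3, Psma6, Psmd4 and Psmc5. Such a run began within 5 bases of the start in 2 of 16 core windows (12.5%), 5 of 18 regulatory windows (27.8%), 32 of 76 windows of ribosomal protein genes (42.1%) and 18.8% of all 20291 windows. Exactly at the annotated start it was found in 0 core and 0 regulatory windows, in 14 windows of ribosomal protein genes (18.4%) and in 2.33% of all windows. These are matches of letters at annotated starts, and the starts used in these cells were not measured.

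Libraries held 4.68 to 42.82 M gene counts in RPF and 4.42 to 94.3 M in mRNA, and the 40 genes took 0.7502% to 1.797% of RPF counts and 0.5236% to 0.982% of mRNA counts. A single other gene, Tmem38b, took 0.0424% to 37.0% of RPF counts, which moves these shares. A pair of mRNA libraries, C1483Y replicate 2 with Torin1 replicate 3, was all but identical across genes (r = 0.999, against at most 0.479 for any other mRNA pair), although the labels put them in different groups. All 10 fibroblast markers were detected in every RPF library. Their summed level was 21800 to 33900 reads per 1e+06 gene counts (ppm) in WT and 15600 to 28100 in Torin1, but 1930 to 3360 in the libraries labelled C1483Y. Those RPF libraries also held muscle markers at 659 to 1490 ppm against 6.55 to 45.6 in WT, and neuron and glia markers at 749 to 1120 ppm against 16.6 to 22.5. Epithelium markers stood there at 17.7 to 125 ppm, with all 5 at 0 in WT. In C1483Y replicates 2 and 3 that level was of Krt18 alone, with Epcam, Cdh1, Krt8 and Krt19 at 0. In every mRNA library all 5 were at 0. Of the defining markers, Myod1 and Myog of muscle and Rbfox3 of neurons were at 0 in all RPF libraries. In mRNA, C1483Y replicates 1 and 3 held fibroblast markers at 917 and 1510 ppm, and replicate 2 at 16600, against 12400 to 13600 in WT and 13800 to 20900 in Torin1. Replicates 1 and 3 also held muscle markers at 2650 and 2260 ppm, against at most 0.3 in WT. That level was of Acta1 alone in replicate 1 and of Acta1 and Des in replicate 3. Myod1, Myog and Ckm were at 0 in both. Neuron and glia markers stood at 966 and 312 ppm in replicates 1 and 3, against at most 0.0533 in WT. That level was of Tubb3 alone, with Rbfox3, Map2, Gfap and Olig2 at 0. Replicate 2 held 0.142 ppm of muscle markers and 0.118 ppm of neuron and glia markers. In bulk libraries, fewer cells of a type and less RNA per cell cannot be told apart.

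In RPF, 35 of the 39 subunit genes had enough reads to be tested, 15 core and 20 regulatory. The 4 others are made in particular tissues or under interferon. The testis subunit Psma8 had 0 reads in all 18 libraries, and the thymus subunit Psmb11 had 0 in RPF and 4 in mRNA. The immunoproteasome subunits Psmb8 and Psmb9, which replace constitutive catalytic subunits in immune cells, had 2 and 6 RPF reads over 9 libraries and 0 mRNA reads. The remaining immunoproteasome subunit, Psmb10, was tested at levels of 10, 6.39 and 3.37 CPM (TMM-scaled reads relative to library size, on the scale of ppm) in the WT RPF libraries.

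Against WT, Torin1 gave lower RPF levels in fitted value for all 35 tested subunits, although no single gene passed the test. Levels are TMM-scaled within the assay, so these changes are relative to other genes, and total footprint output was not measured. The 15 core subunits had a median log2 change of -0.64 (from -0.85 to -0.28) and the 20 regulatory genes a median of -0.37 (from -0.87 to -0.10), while the median over all 11085 genes tested was 0.03. By edgeR's quasi-likelihood test with Benjamini-Hochberg adjustment over all genes, 0 of 35 subunits passed an adjusted p of 0.05, beside 0.749% of all genes (0.74% lower and 0.00902% higher). At an unadjusted p under 0.05 there were 6 subunits, 5 core and 1 regulatory, beside 4.15% of all genes. A log2 change below 0 was fitted for 47.4% of all genes. All 3 Torin1 libraries lay below all 3 WT libraries for 11 of 15 core and 11 of 20 regulatory genes, beside 10.7% of all genes, and no subunit had all 3 above, beside 8.48%.

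**Figure D1:**
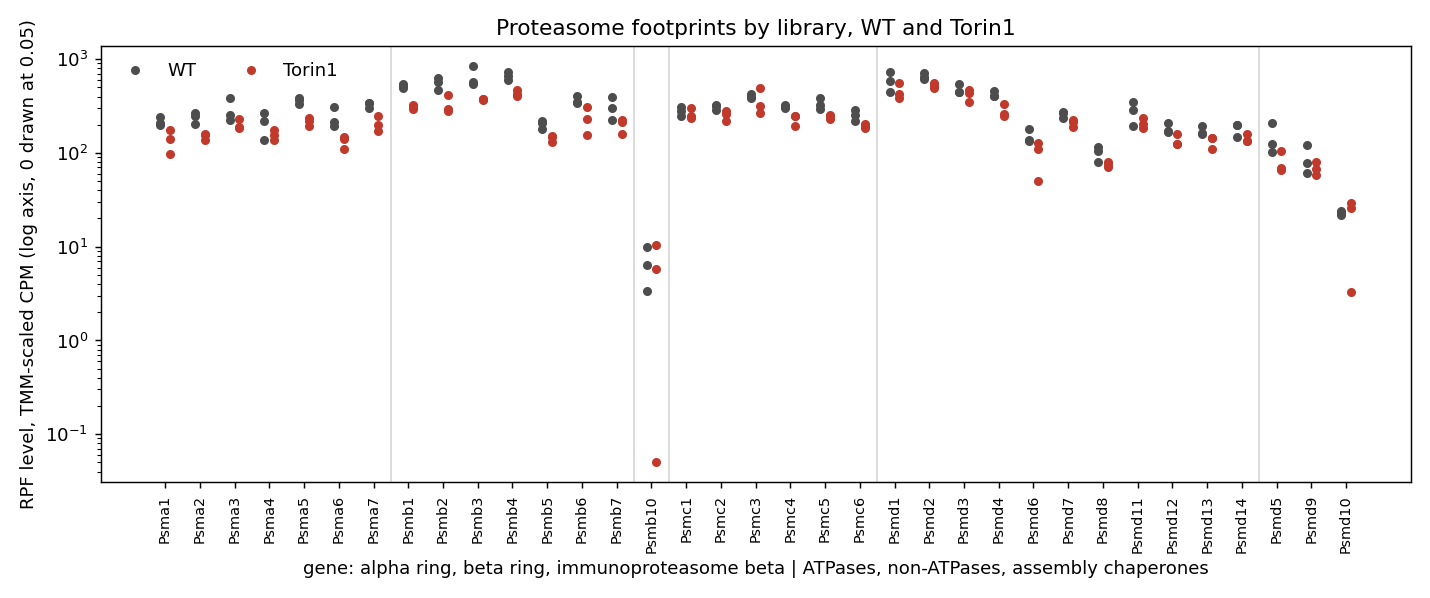
RPF level of each tested subunit gene (TMM-scaled CPM, log axis, 0 drawn at 0.05) in the 3 WT and 3 Torin1 libraries, with 1 point a library and grey lines between classes of subunit. The Torin1 points lie below all WT points for 22 of the 35 genes.

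By class, the 7 tested alpha subunits had a median log2 change of -0.65, the 7 constitutive beta subunits -0.64, the 6 ATPases -0.33 and the 11 non-ATPase subunits -0.38. The classes overlapped: the alpha subunits ranged from -0.85 to -0.41 and the non-ATPases from -0.66 to -0.20. Psmd5, Psmd9 and Psmd10, which encode chaperones that help to assemble the regulatory base, had a median of -0.35.

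**Figure D2:**
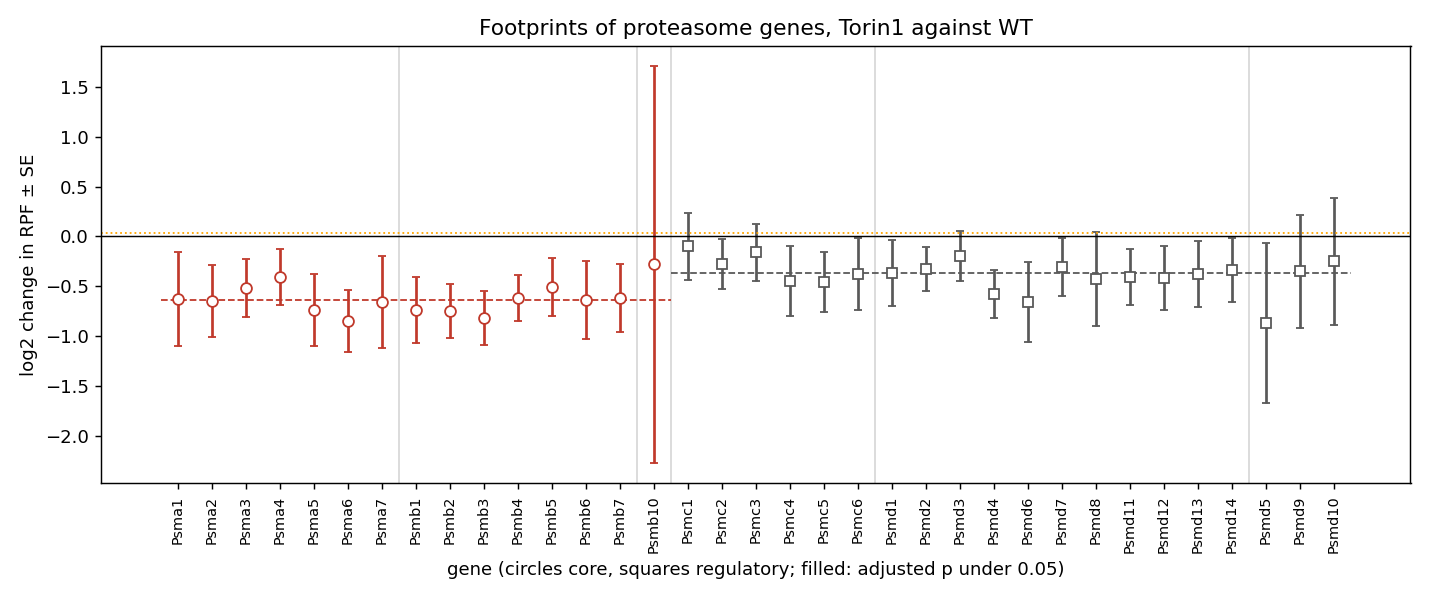
Log2 change in RPF with its standard error for each tested subunit gene, Torin1 against WT, core genes as red circles and regulatory genes as grey squares. Dashed lines mark the median of each set (-0.64 and -0.37) and the dotted line that of all genes (0.03); no symbol is filled, since no adjusted p was under 0.05.

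Among core genes, the smallest p-values belonged to a pair of structural beta subunits and an alpha subunit. Psmb3, a beta subunit without proteolytic activity, stood at 578, 547 and 851 CPM in WT and at 376, 365 and 377 in Torin1. Its Torin1 libraries were almost level and all under the lowest WT value, with a log2 change of -0.82 ± 0.27 (SE; edgeR adjusted p = 0.623). Psma6, an alpha-ring subunit, stood at 196, 215 and 308 CPM in WT and at 111, 147 and 140 in Torin1. Its groups did not overlap either, and its log2 change was -0.85 ± 0.31 (edgeR adjusted p = 0.762). Psmb2, also a beta subunit without proteolytic activity, stood at 628, 565 and 470 CPM in WT and at 417, 282 and 293 in Torin1, a log2 change of -0.75 ± 0.27 (edgeR adjusted p = 0.762). Here too the highest Torin1 library was under the lowest WT library. Psmb1 and Psmb4, which complete the group of 5 core genes with an unadjusted p under 0.05, changed by -0.74 ± 0.33 and -0.62 ± 0.23 in fitted log2 value. Psmb4, with 606, 732 and 661 CPM in WT against 423, 473 and 406 in Torin1, passed the threshold in limma-voom, the 1 alternative among 13 that called any subunit.

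The catalytic subunits had fitted changes in the same direction. Psmb5, which carries the chymotrypsin-like activity, had RPF levels of 182, 220 and 210 CPM in WT and 130, 152 and 147 in Torin1, with a log2 change of -0.51 ± 0.29. Psmb6, which carries the caspase-like activity, had 406, 342 and 348 CPM in WT and 233, 311 and 157 in Torin1, with a log2 change of -0.64 ± 0.39. Both had every Torin1 library under every WT library, and the edgeR adjusted p was 1 for each. Psmb7, which carries the trypsin-like activity, had 225, 299 and 400 CPM in WT and 160, 215 and 227 in Torin1, a log2 change of -0.62 ± 0.34, and its highest Torin1 library reached past the lowest WT library. Psmb10, the immunoproteasome subunit, had 5.81, 0 and 10.4 CPM in Torin1, on both sides of its WT levels. Its log2 change of -0.28 ± 1.99 changed sign when WT replicate 1 or Torin1 replicate 2 was left out (0.28 and 0.30), and 0 reads in Torin1 replicate 2 allow up to 0.15 ppm.

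Among regulatory genes, Psmd4 had the smallest p-value. Psmd4, a ubiquitin receptor, stood at 402, 456 and 401 CPM in WT and at 262, 336 and 245 in Torin1. The Torin1 libraries were all lower, with a log2 change of -0.58 ± 0.24 (edgeR unadjusted p = 0.0363, adjusted p = 1). Psmd6, a scaffold subunit of the lid, stood at 139, 134 and 180 CPM in WT and at 109, 128 and 50.6 in Torin1, with a log2 change of -0.66 ± 0.40. Torin1 replicate 3 alone lay far below the other 2 libraries of its group. Psmc5, an ATPase, stood at 323, 389 and 294 CPM in WT and at 248, 256 and 228 in Torin1, a log2 change of -0.46 ± 0.30. At the other end, the ATPases Psmc1 (-0.10 ± 0.34) and Psmc3 (-0.16 ± 0.29) and the scaffold subunit Psmd3 (-0.20 ± 0.25) had the smallest fitted changes among regulatory genes. For Psmc3 the Torin1 libraries, at 266, 499 and 317 CPM, lay on both sides of the WT libraries at 390, 423 and 395. Psmc3ip, not a subunit, had 16.4, 9.98 and 5.23 CPM in WT and 18.1, 12.9 and 7.69 in Torin1, so its groups overlapped (log2 change 0.29 ± 1.61).

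Within each Torin1 library, core genes lay further below WT than regulatory genes at the median. Against the WT mean, the median core log2 difference was -0.64, -0.67 and -0.62 in the 3 Torin1 libraries and the median regulatory difference -0.35, -0.24 and -0.45. Summed core levels were 4960, 5080 and 5430 CPM in WT and 3260, 3260 and 3180 in Torin1. Summed regulatory levels were 5600, 5680 and 5560 CPM in WT and 4270, 4850 and 4040 in Torin1. There were therefore 0.887, 0.894 and 0.978 core reads per regulatory read in the WT libraries, against 0.763, 0.673 and 0.788 in Torin1, and the groups did not overlap. No test was made of this difference, since the members are not replicates. The core median lay under the regulatory median in all 15 alternative settings, by 0.23 to 0.35 on the log2 scale.

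**Figure D3:**
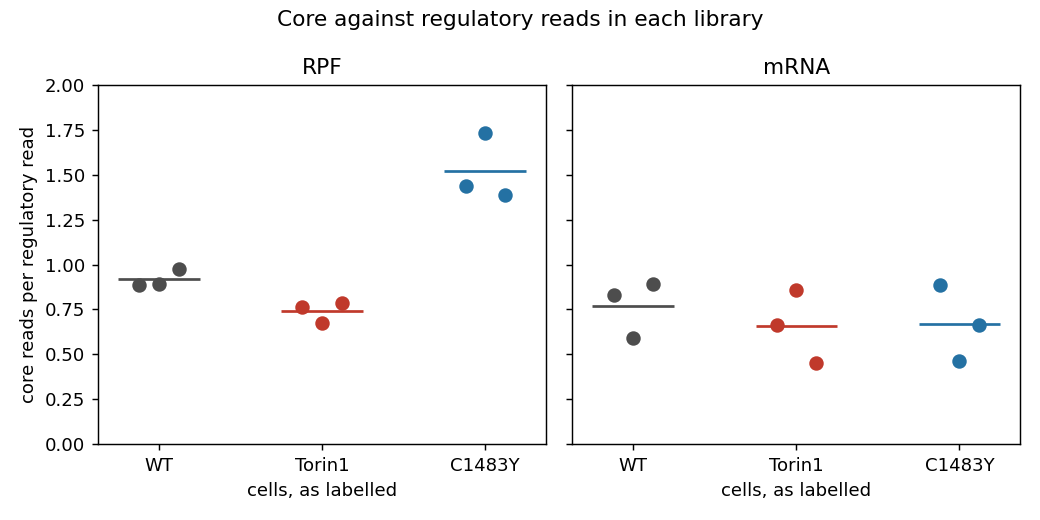
Core reads per regulatory read in each library (points, with the mean of 3 libraries as a line) for RPF and mRNA. Reads were summed over all core and all regulatory genes, tested or not, and not scaled for gene length. In RPF the 3 groups do not overlap, with 0.673 to 0.788 in Torin1 and 1.39 to 1.73 in C1483Y; in mRNA they overlap.

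The variation of the footprints between libraries depended on the group. The median coefficient of variation over 3 WT RPF libraries was 13.3% for core genes and 12.9% for regulatory genes, against 35.3% over all genes tested. In Torin1 it was 11.8% and 14.6%, against 43.8%, and in the libraries labelled C1483Y 36.2% and 27.3%, against 86.4%. The subunits were also better covered, with median WT levels of 308 CPM for core and 268 CPM for regulatory genes against 22.5 CPM over all genes, and the part of coverage in their smaller variation was not tested.

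In mRNA the same genes varied widely between libraries, and no difference between Torin1 and WT was detectable. Of 34 subunits tested, 15 core and 19 regulatory (Psmd10 had too few reads), 0 passed by edgeR's quasi-likelihood test with Benjamini-Hochberg adjustment, beside 0.014% of 7121 genes. At an unadjusted p under 0.05 there were also 0, beside 7.12% of all genes, and DESeq2 and limma-voom called 0 subunits, beside 499 and 16 of all genes. The median log2 change was 0.05 for core and -0.27 for regulatory genes, and 0.02 over all genes. The change was below 0 for 17 of 34 subunits, beside 49.5% of all genes. All 3 Torin1 libraries lay below WT for 2 subunits, beside 4.42% of all genes, and above for 6, beside 5.39%. The core-to-regulatory ratio of mRNA was 0.832, 0.589 and 0.893 in WT and 0.664, 0.857 and 0.453 in Torin1, so the groups overlapped.

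**Figure D4:**
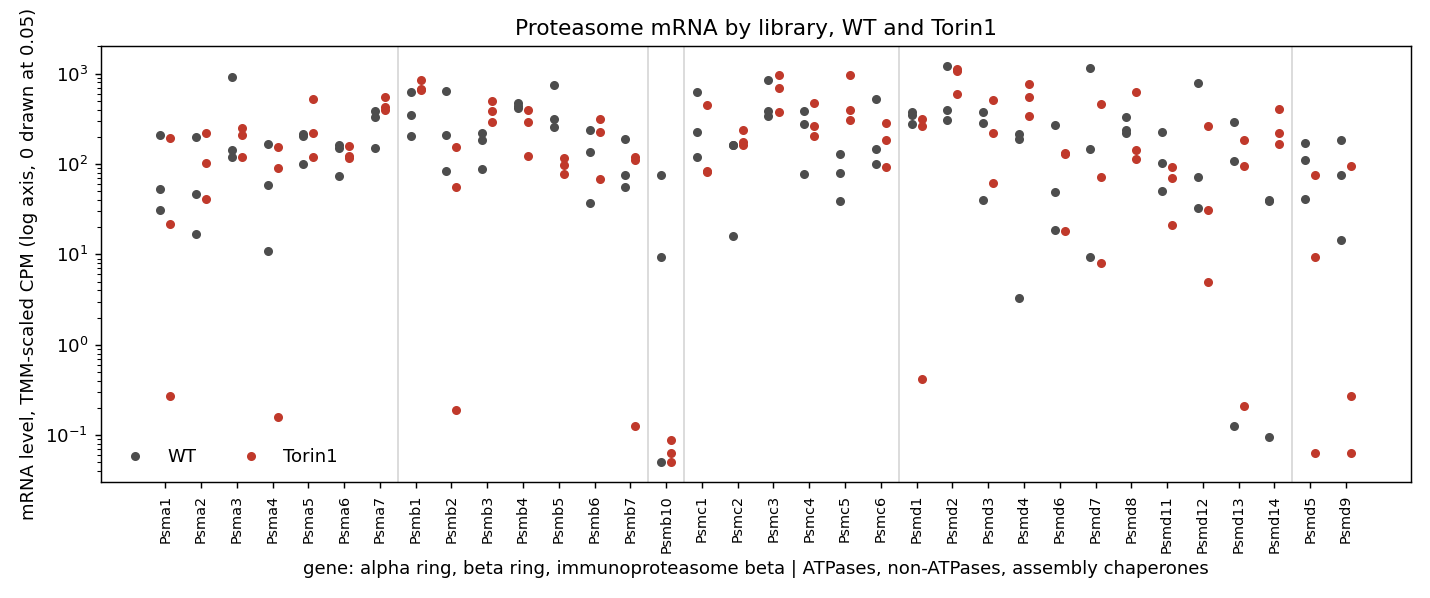
mRNA level of each tested subunit gene (TMM-scaled CPM, log axis, 0 drawn at 0.05) in the 3 WT and 3 Torin1 libraries, 1 point a library. Libraries of the same group lie far apart for many genes, as for Psmd7 at 9.24, 1150 and 148 CPM in WT.

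Single libraries could hold a subunit almost without reads where the others of the group held it well. Psmd1, a scaffold of the base, stood at 277, 352 and 375 CPM of mRNA in WT and at 266, 316 and 0.414 in Torin1. Psma4 stood at 58.3, 10.9 and 165 CPM in WT and at 156, 89.3 and 0.159 in Torin1. In both cases Torin1 replicate 3, a member of the nearly identical pair, was the low library. Some genes had a level under 1 CPM in 1 library and at least 10 in another of the same group. In Torin1 mRNA these were 4 of 15 core and 4 of 19 regulatory genes, beside 54.2% of all genes. In WT mRNA they were 1 core and 2 regulatory genes, beside 53.2%, and in C1483Y mRNA 3 and 5, beside 50.3%. In WT and Torin1 RPF such a split was found for Psmb10 alone among subunits, in Torin1. The shares of all genes there were 3.69% in WT and 7.17% in Torin1. The median coefficient of variation of WT mRNA was 67.9% for core and 78.8% for regulatory genes, against 116% over all genes.

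The mRNA values with the smallest p-values show this spread. Psmc5 stood at 128, 38.6 and 79.7 CPM of mRNA in WT and at 303, 395 and 968 in Torin1, a log2 change of 2.76 ± 1.65 (edgeR adjusted p = 0.847). Psmd14, the deubiquitinase of the lid, stood at 40.3, 0.0951 and 38.8 CPM in WT and at 220, 165 and 410 in Torin1, a log2 change of 3.33 ± 2.09 (edgeR adjusted p = 0.918). For both the Torin1 libraries were all above WT, opposite in sign to their RPF changes of -0.46 and -0.34. Psmd4 stood at 214, 3.28 and 190 CPM in WT and at 339, 546 and 770 in Torin1, a log2 change of 2.02 ± 1.49. Among core genes, Psmb5 stood at 257, 748 and 311 CPM in WT and at 78, 97.4 and 115 in Torin1, without overlap, a log2 change of -2.18 ± 1.95 (edgeR adjusted p = 1). Psmb2 had a log2 change of -2.16 ± 2.07, with 0.191 CPM in Torin1 replicate 3 against 154 and 56.2 in the other libraries. The mRNA of Psmb10 was seen at 9.32, 0 and 76.4 CPM in WT and at 0, 0.0882 and 0.0637 in Torin1 (edgeR log2 change -9.01 ± 5.61, adjusted p = 0.904). For the other catalytic subunits, Psmb6 mRNA stood at 239, 37 and 136 CPM in WT and 68.8, 224 and 316 in Torin1, and Psmb7 mRNA at 191, 55.8 and 75.8 in WT and 120, 111 and 0.127 in Torin1, with overlap in both. Without the nearly identical pair of libraries, 0 subunits passed and the core and regulatory medians were 0.10 and -0.55.

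Translational efficiency (TE), the RPF level relative to mRNA tested as an interaction over all 18 libraries, was not called for any subunit under Torin1. It passed for 0 of 34 subunits by edgeR's quasi-likelihood test, beside 0.0283% of 7072 genes, and 2 subunits had an unadjusted p under 0.05, beside 11.1% of all genes. DESeq2 and limma-voom also called 0, beside 543 and 21 of all genes. The median log2 change in TE was -0.47 for core and -0.37 for regulatory genes, with -0.14 over all genes, and 20 of 34 subunits lay below 0, beside 52.8% of all genes. The core value was 0.29 with limma-voom and 0.12 as a mean, so its sign depended on these choices. Among regulatory genes the smallest p-values were those of Psmc5 (-3.21 ± 1.5, edgeR adjusted p = 0.385), Psmd14 (-3.67 ± 1.77, adjusted p = 0.429) and Psmd4 (-2.60 ± 1.38, adjusted p = 0.549). These had the largest upward changes in fitted mRNA among the 9 of 19 regulatory genes above 0. Among core genes they were those of Psmb10 (8.66 ± 4.37, edgeR adjusted p = 0.494), Psmb3 (-2.07 ± 1.16, adjusted p = 0.648) and Psmb1 (-1.64 ± 1.38, adjusted p = 0.999). The standard errors of TE, 1 or more for every subunit, exceed the RPF medians above, so a change in TE of the size of the RPF difference was not detectable. Within WT, the log2 ratio of RPF to mRNA levels had a median of 0.90 over 15 core genes and 0.37 over 19 regulatory genes, and -0.01 over 6978 genes.

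The libraries labelled C1483Y were compared with the same WT libraries, so the comparisons share their controls. In RPF, 7 of 35 subunits passed the test, 5 higher and 2 lower, beside 7.91% of all genes higher and 10.7% lower. Of these 7, Psmd10 (higher) and Psmd5 (lower) encode assembly chaperones. The core median was 0.43 and the regulatory median 0.00, against -0.27 over all genes, and 16 subunits lay below 0, beside 55.6% of all genes. All 3 C1483Y libraries above all WT libraries were seen for 8 subunits, beside 16.5% of all genes, and all 3 below for 7, beside 27.4%. The 7 subunits called stand beside 18.6% of all genes called in either direction. In these same libraries the fibroblast, muscle and neuron markers differed from WT as given above. The part of the markers in the subunits' changes was not tested.

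**Figure D5:**
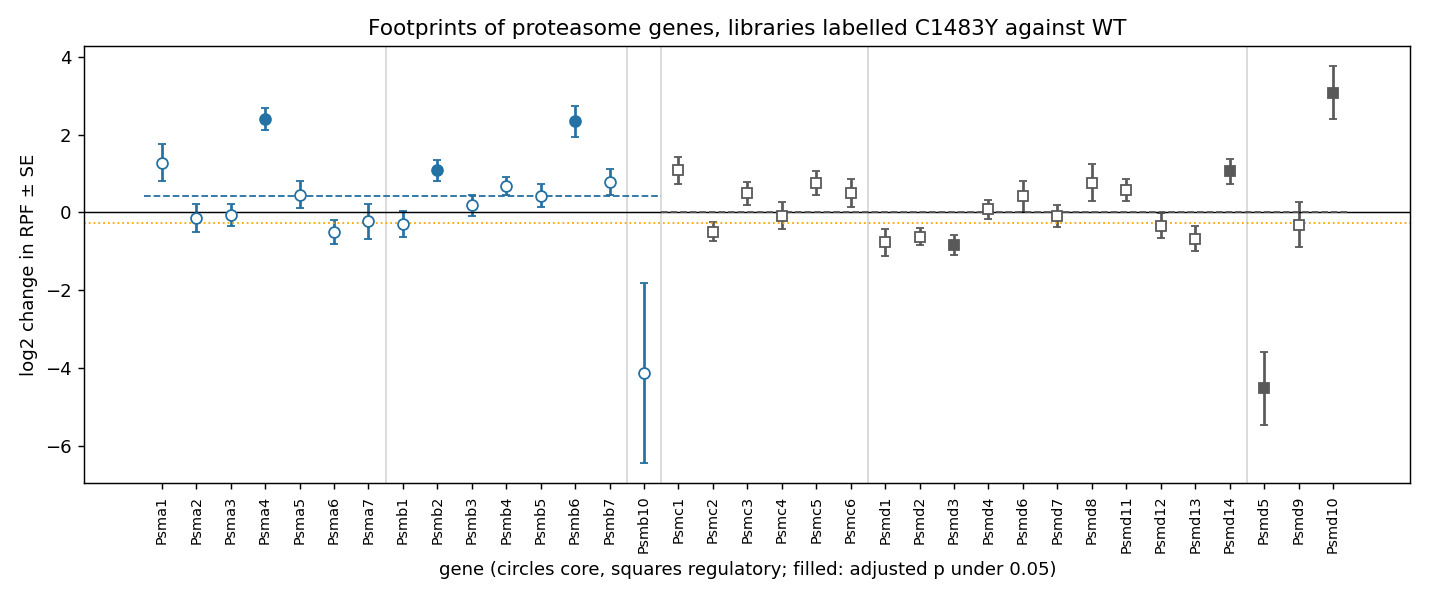
Log2 change in RPF with its standard error for each tested subunit gene, libraries labelled C1483Y against WT, core genes as blue circles and regulatory genes as grey squares, filled where the adjusted p was under 0.05. Dashed lines mark the core and regulatory medians (0.43 and 0.00) and the dotted line the median of all genes (-0.27); the 7 filled genes lie on both sides of 0.

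Core genes that rose were Psma4, Psmb6 and Psmb2. Psma4, an alpha-ring subunit, stood at 217, 265 and 139 CPM of RPF in WT and at 1050, 1190 and 1040 in C1483Y, a log2 change of 2.40 ± 0.29 (edgeR adjusted p = 0.000358). Psmb6 stood at 406, 342 and 348 CPM in WT and at 1350, 3100 and 1110 in C1483Y, a log2 change of 2.34 ± 0.40 (edgeR adjusted p = 0.0025). Both were far above WT in every library, and replicate 2 was the highest for each. Psmb2 stood at 628, 565 and 470 CPM in WT and at 1480, 952 and 1110 in C1483Y, a log2 change of 1.09 ± 0.27 (edgeR adjusted p = 0.0165). The other catalytic subunits did not pass. Psmb5 stood at 195, 314 and 313 CPM in C1483Y (log2 change 0.43 ± 0.29), overlapping WT, and Psmb7 at 325, 706 and 566 (0.79 ± 0.34). Psmb10 stood at 0.456, 0 and 0.671 CPM in C1483Y, with a log2 change of -4.12 ± 2.32, and 0 reads in replicate 2 allow up to 0.64 ppm.

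Regulatory genes moved both ways. Psmd10, which encodes the base chaperone gankyrin, stood at 23, 21.7 and 24.3 CPM in WT and at 175, 154 and 256 in C1483Y, and rose by 3.08 ± 0.69 on the log2 scale (edgeR adjusted p = 0.0104). Psmd5, another base chaperone, stood at 102, 126 and 209 CPM in WT and at 1.6, 16.1 and 1.12 in C1483Y, and fell, with a log2 change of -4.52 ± 0.93 (edgeR adjusted p = 0.00673). These chaperones thus changed in opposite directions, without overlap with WT in any library. Psmd14 rose, from 200, 197 and 149 CPM to 469, 237 and 430 (1.06 ± 0.32, edgeR adjusted p = 0.0407), and Psmd3 fell, from 550, 451 and 442 CPM to 237, 276 and 299 (-0.83 ± 0.25, edgeR adjusted p = 0.0406). The calls of Psma4, Psmb6, Psmd5 and Psmd10 held in all 13 alternatives. That of Psmb2 held in 9, that of Psmd14 in 5 and that of Psmd3 in 4. The count of subunits called was 4 when any 1 of the WT libraries was left out and 12 without C1483Y replicate 2, beside 1163 to 1307 and 3161 of all genes, against 2060 with all libraries.

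The core-to-regulatory ratio in RPF was 1.44, 1.73 and 1.39 in the C1483Y libraries, above every WT library. The summed core level was 8460, 10400 and 8570 CPM there, in which Psma4, Psmb2 and Psmb6 are included, and the summed regulatory level was 5890, 5980 and 6170 CPM. The core median moved less than the sum, with 0.15, 0.38 and 0.57 in the 3 libraries against the WT mean, beside regulatory medians of 0.03, 0.04 and 0.05.

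In mRNA, 0 of 34 subunits passed between the C1483Y and WT libraries by edgeR's quasi-likelihood test, beside 0.323% of all genes, and 0 had an unadjusted p under 0.05, beside 8.72%. Without the nearly identical pair 0 subunits passed, while 145 of all genes did, against 23 with it, and the median of all genes was -2.51. DESeq2 called Psmd14 (log2 change 5.30, adjusted p = 0.041) among 502 of all genes. The core and regulatory medians were -0.27 and -0.07, against -0.50 over all genes, and with DESeq2 size factors in edgeR they were 2.02 and 2.30 against 0.99, so the direction depended on the scaling. With TMM 20 of 34 subunits lay below 0, beside 56.8% of all genes. All 3 C1483Y libraries lay below WT for 5 subunits, beside 9.49%, and above for 2, beside 3.23%. The smallest p-values among regulatory genes belonged to Psmd12, a lid subunit (-5.35 ± 2.74, edgeR adjusted p = 0.544), Psmd14 (3.54 ± 2.11, adjusted p = 0.584) and Psmd5 (-7.35 ± 4.42, adjusted p = 0.591). Psmd5 mRNA stood at 169, 40.8 and 111 CPM in WT and at 1.85, 0 and 0.184 in C1483Y, low in every library as in RPF, although the test did not pass. Psmd12 mRNA stood at 32.3, 784 and 71.6 CPM in WT and at 1.85, 19.7 and 0.184 in C1483Y. Among core genes the smallest p-values were those of Psma4 (-4.62 ± 3.70, edgeR adjusted p = 0.65), Psmb5 (-2.27 ± 1.95, adjusted p = 0.686) and Psmb10 (-4.55 ± 4.62, adjusted p = 0.764). Psma4 mRNA stood at 8.3, 0.0206 and 1.29 CPM in C1483Y, below each WT library, while its RPF level was above WT.

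TE between the C1483Y and WT libraries passed for 0 of 34 subunits by edgeR's quasi-likelihood test, beside 0 of 7072 genes, and 3 subunits had an unadjusted p under 0.05, beside 13.2% of all genes. The medians were 0.45 for core and 0.38 for regulatory genes, with 0.02 over all genes, and 14 of 34 subunits lay below 0, beside 49.7%. With DESeq2 size factors in edgeR the medians were -1.26 and -2.26, against -1.76 over all genes, and 26 subunits lay below 0, so here too the direction depended on the scaling. Psma4 had the smallest p-value (log2 change in TE 7.05 ± 2.11, edgeR adjusted p = 0.181). It passed when the nearly identical mRNA pair was left out (6.52, edgeR adjusted p = 0.0219, among 238 of all genes called, with a median of 1.52 over all genes; over all alternatives the log2 change was 4.82 to 9.50). Among regulatory genes the smallest p-values were those of Psmd12 (5 ± 2.21, edgeR adjusted p = 0.313), Psmd6 (4.69 ± 2.17, adjusted p = 0.334) and Psmd14 (-2.49 ± 1.74, adjusted p = 0.585). Among core genes Psmb6 (2.13 ± 1.16, edgeR adjusted p = 0.443) and Psmb5 (2.69 ± 1.58, adjusted p = 0.488) followed.

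The promoters of the subunits were also searched for TGANNNNGC, the core of the antioxidant response element that Nfe2l1 and Nfe2l2 bind, on both strands of windows from 250 bases before to 50 after each start. It was found in 12 of 16 core windows (75%), 8 of 18 regulatory windows (44.4%), 38.2% of the windows of ribosomal protein genes and 41.7% of all windows. The core windows include those of Psmb8, Psmb9 and Psmb11, which all match and were hardly read in these cells, and none of Psmb1, Psmb2 and Psmb7. Counting matches before the start alone, 7 of 15 core genes and 6 of 17 regulatory genes had one. Psmb9 and Psmb11 are among those 7. This count was not made for all windows, so there is no share of all genes to set beside it. The stricter form TGANTCAGC, each match of which is also a match of the first, was found in 1 core window and in 1.16% of all windows. The core window was that of Psmb5, and the match there did not lie wholly before the annotated start. A match of these letters does not show that either factor was bound in these cells.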

How the data were processed

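RPF and mRNA were sequenced in 18 libraries (3 groups, 3 libraries per group and assay). The authors' deposited files give whole-number counts of reads per gene, 1 file a library, not normalized. Bowtie 1.1.2, TopHat2 2.1.1 and HTSeq were used with mm10, per the submitters' processing notes; in which order and with which settings is not given in the sources used here. Per the labels' protocols, RNase I released the RPF, heat fragmented the mRNA, and libraries came from a small-RNA kit; no molecular identifiers are mentioned, so floors cover counting error only. The 5 summary lines and 27 lines carrying dates (0.089% to 0.264% of gene counts) were left out. Reads placed at more than 1 site, 22.2% to 47.5% of counted lines in RPF and 49.3% to 95.9% in mRNA, are not in gene counts. In mRNA the highest shares were those of C1483Y replicates 1 and 3, at 95.9% and 90.8%. In RPF the C1483Y libraries had the highest shares, at 42.9%, 47.5% and 37.8%. They also had the fewest gene counts of RPF, at 4.68, 4.69 and 6.96 M. The part of these differences in the C1483Y comparisons was not tested. RefSeq names 6 pseudogenes of Psma5, Psmb5, Psmb6 and Psmb7, so levels of these genes are uncertain. A floor is 3 reads in a library, 0.0701 to 0.641 ppm in RPF and 0.0318 to 0.679 ppm in mRNA.

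The test of counts was that of edgeR 4.0.16 (quasi-likelihood, TMM, filterByExpr, all groups of an assay in 1 fit) in R 4.3.3, adjusted by Benjamini-Hochberg over all genes, threshold 0.05. TE was the interaction of assay and cells. Biological coefficients of variation had medians of 0.9 (RPF), 2.19 (mRNA) and 1.62 (TE). Scripts were tested on simulated data with less spread between libraries and with larger changes than those of the subunits in RPF under Torin1. That checks the code and not the power here. Alternatives were DESeq2 1.42.0, limma 3.58.1, other scaling, no filter, the 2 groups alone, a replicate block, and leaving out each library. Library medians used log2(CPM + 0.5). Levels per coding length were not computed, because no coding lengths were used here, so levels are not compared between genes.

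The members, the lists and the named genes were chosen with earlier results of these data known. Named in every comparison are the 3 core and 3 regulatory genes with the smallest p-values. The catalytic and immunoproteasome subunits were also chosen for naming, but not all of their values are given in every comparison. Psmb1, Psmb4, Psmc1, Psmc3, Psmd1 and Psmd7 were named after their values were seen. Sets of genes are described by counts and medians beside all genes tested, without a test. Values of some genes on the lists are not reported here.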

Additional observations from a re-analysis of the deposited data

How the results depend on the processing

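Of 420 recomputed counts, medians and differences of medians, 366 stayed within the spread between libraries (counts: within 1.5 times) and 54 moved; of 839 recomputed log2 changes of named genes, 780 kept direction and side of the threshold, 21 lost their call, 2 gained one and 36 changed sign. The cause was not tested. RPF, Torin1: limma-voom called 1 subunit, and the core median was -0.57 with DESeq2 or its size factors, -0.69 with limma-voom, -0.61 with the 2 groups alone or without Tmem38b, and -0.72 with the replicate block; leaving out 1 library gave core medians of -0.69 to -0.52, regulatory -0.42 to -0.25 and 32 to 35 subunits below 0. All genes' counts were 33 to 62 without 1 library, 117 with no filter, 138 with the 2 groups, 160 with DESeq2 and 206 with limma-voom, against 83. RPF, C1483Y: DESeq2 called 11 subunits, the block 5, and leaving out 1 library 4 to 12 (3312, 1595 and 1163 to 3161 of all genes). The regulatory median was 0.05 with DESeq2 or its size factors, -0.04 with no filter, -0.06 with limma-voom, 0.02 without Tmem38b, 0.08 without chaperones and -0.13 to 0.07 without 1 library; with no filter the core median was 0.14 and the core minus regulatory difference 0.19 (0.22 to 0.62 without 1 library). mRNA, Torin1: the core median was -0.58 with limma-voom and as a mean -0.75, and the regulatory median -0.58 to 0.44 without 1 library. mRNA, C1483Y: DESeq2 and its size factors gave core and regulatory medians of 2.02 and 2.30 (1 call with DESeq2), limma-voom a core median of -1.31 and a difference of -1.40, the regulatory mean was -0.80, and differences were -0.56 to 0.80 without 1 library. TE, Torin1: the core median was 0.29 with limma-voom and as a mean 0.12. TE, C1483Y: DESeq2 size factors gave medians of -1.26 and -2.26, DESeq2 -1.19 and -2.19, limma-voom a difference of 1.13, and the core median was 0.33 to 1.88 and the difference -0.01 to 1.53 without 1 library; without the nearly identical pair 1 subunit passed.

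Signs changed for Psmb10 in RPF under Torin1 (0.28 and 0.30 at most without 1 library, -1.19 at least), Psmb7 in mRNA under Torin1 (0.10 without the pair, -0.95 to 0.23 without 1 library) and in C1483Y (2.02 with DESeq2 or its size factors, 0.27 with 2 groups, 0.45 without the pair, -4.26 to 0.57 without 1 library), Psmb6 in mRNA in C1483Y (-0.19 without the pair, -0.26 to 0.85 without 1 library), Psmb7 in TE under Torin1 (0.02 with no filter, 2.02 with limma-voom, 0.00 with 2 groups, -0.85 to 0.33 without 1 library) and in C1483Y (-1.14 and -1.07 with DESeq2 size factors and DESeq2), and Psmb10 in TE in C1483Y (-1.60 and -1.55 with these, -0.57 with limma-voom, -1.76 with the replicate block, -0.08 without the pair, -0.13 with TMM over 18 libraries, -2.08 to 8.56 without 1 library). In the main fits of mRNA, Psmb7 had -0.49 ± 2.63 under Torin1 and -0.05 ± 2.63 in C1483Y, and Psmb6 had 0.22 ± 2.07 in C1483Y. In those of TE, Psmb7 had -0.13 ± 2.14 under Torin1 and 0.84 ± 2.14 in C1483Y, and Psmb10 had 0.44 ± 4.03 in C1483Y.

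The labels do not say that replicate numbers pair the libraries. Deviations of same-numbered libraries correlated at 0.01 to 0.16 in RPF, against -0.11 to 0.03 for other pairs, and at -0.41 to 0.29 in mRNA, against -0.44 to 0.69. The RPF values are a hint from the data. The Tmem38b share of RPF counts was 0.0424% to 0.292% in replicate 2 of each group and 9.43% to 26.9% in replicate 1. In replicate 3 it differed widely between groups, with 1.22% in WT, 37.0% in C1483Y and 12.9% in Torin1. With the replicate number as a block, 0 subunits passed for Torin1 in RPF, mRNA and TE (85, 0 and 2 of all genes) and 5, 0 and 0 for C1483Y. Levels per coding length were not run. The spread between mRNA libraries limits mRNA and TE. The WT mRNA libraries held 26.69, 94.3 and 56.34 M gene counts, against 13.28, 42.82 and 13.04 M in WT RPF. Only C1483Y replicates 1 and 3 were shallow in mRNA, at 4.42 and 5.7 M. The part of depth was not tested.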

Other observations

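Other genes of the pathway were counted by 4 lists, each chosen with earlier results of these data known. Against WT, Torin1 gave a median RPF log2 change of -0.45 over 12 genes of activators, inhibitor and regulatory-particle subunits with other symbols, -0.48 over 5 assembly chaperones, 0.07 over 8 genes of proteasome transcription control and 0.02 over 16 genes of ubiquitin supply, shuttling and unfolding. By edgeR's quasi-likelihood test 1 of these genes passed, beside 0.749% of all genes. Rps27a, which encodes ubiquitin fused to a ribosomal protein, fell from 1120, 1290 and 1520 CPM in WT to 301, 393 and 428 in Torin1 (log2 change -1.81, edgeR adjusted p = 0.0033). Adrm1, a ubiquitin receptor of the regulatory particle, had -0.58, and the core chaperone Pomp had -0.79 (adjusted p = 1 for both). Nfe2l1 stood at 137, 135 and 170 CPM in WT and 139, 170 and 147 in Torin1, with overlap.

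In RPF of the libraries labelled C1483Y, where 7.91% of all genes were called higher and 10.7% lower, 2 of 12 genes of the first list rose, the activator Psme3 (log2 change 1.15, edgeR adjusted p = 0.0455) and the inhibitor Psmf1 (3.14, adjusted p = 0.00217). Psmf1 stood at 160, 207 and 216 CPM there, against 25.3, 25 and 15.5 in WT. Of the chaperones, Pomp fell from 183, 185 and 214 CPM to 28.3, 21.9 and 40.7 (-2.68, edgeR adjusted p = 0.00106). Of the transcription genes, Nfe2l2 (-2.93, edgeR adjusted p = 0.00148) and Mafk (-6.72, adjusted p = 0.0432) fell. Of the ubiquitin list, Rps27a rose (1.11, edgeR adjusted p = 0.00636) and Vcp, the unfolding ATPase, fell (-0.86, adjusted p = 0.0372). The list medians were 0.23, -0.05, -1.46 and 0.49, and the markers of other cell types differed in the same libraries as described in the report; their part was not tested.

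In mRNA and TE none of the genes on the 4 lists passed. The smallest p-values of all lists belonged to Uchl5, a deubiquitinase of the regulatory particle. Its log2 change in mRNA was 12.33 ± 4.34 in Torin1 and 11.89 ± 4.28 in C1483Y (edgeR adjusted p = 0.67 and 0.489). In TE it was -12.92 ± 3.61 and -11.63 ± 3.5 (edgeR adjusted p = 0.217 and 0.181). Uchl5 mRNA stood at 0, 0.0317 and 0.0438 CPM in WT, at 24.4, 0.0176 and 429 in Torin1 and at 0, 300 and 33.2 in C1483Y. The levels of 429 and 300 are those of the nearly identical pair, so these changes rest largely on that pair.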
